A study of Mus musculus with 24 samples.

Results

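Vip interneurons of the mouse motor cortex were selected cell by cell from counts of unique molecular identifiers (UMIs, each standing for 1 captured RNA molecule). A cell was kept when it had at least 1000 UMIs, at least 500 detected genes and at most 20% mitochondrial UMIs. It was then called a Vip cell when Gad1 and Gad2 together gave at least 2 UMIs, Slc17a7 gave at most 1, Vip gave at least 5, and Vip exceeded both Pvalb and Sst. This rule found 1663 Vip cells among 50361 cells of the 12 motor cortex libraries that passed the filter, out of 103715 passing cells in the whole series, which also covers dorsal striatum. They made up 35.1% of the 4741 GABAergic cells, which are the cells meeting the Gad1, Gad2 and Slc17a7 limits. The same rule found 15 cells in the striatal libraries.

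All motor cortex mice carried Fos-CreER::Ai9, in which a tamoxifen-dependent Cre expressed from Fos switches on a tdTomato reporter in recently active cells. Early mice were trained on forelimb reaching for 2 days and late mice for 8 days. Control mice were not trained, and every group, controls included, was given 4-hydroxytamoxifen. Tissue was taken 3 days after labelling, digested with papain and cleared of dead cells, so cells that die easily in dissociation may be under-represented. Each library held 1 hemisphere pooled from 2 mice, named in the labels as a male and a female. The 2 hemispheres of a pair of mice form a pool, and there were 2 pools per stage. Hemispheres were labelled contralateral or ipsilateral in trained mice and left or right in controls. The ages of the mice are not given in the sources used here.

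Vip interneurons are inhibitory neurons that use GABA and also make vasoactive intestinal peptide. They arise in the caudal ganglionic eminence of the embryo, as Lamp5 interneurons largely do, whereas most parvalbumin (Pvalb) and somatostatin (Sst) interneurons arise in the medial ganglionic eminence. In cortex many of them contact other interneurons, Sst cells above all, so that their firing can release pyramidal cells from inhibition, and they are driven by acetylcholine and serotonin. One known division sets small bipolar cells that make calretinin (Calb2) apart from larger basket-like cells that make cholecystokinin (Cck).

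The values that chose the cells are given as a description. Vip (chromosome 10, 5639218 to 5647617 on the plus strand, GRCm38) had a median of 68 UMIs per Vip cell, with quartiles of 32 and 116 and a maximum of 492. Vip cells had a median of 5447 UMIs and 2777 genes in all. The summed Vip level per pool lay at 8423, 12882 and 17656 counts per 1000000 UMIs of the pool (CPM; lowest, median and highest of 6 pools). Gad1 and Gad2, which encode the enzymes that make GABA, lay at 821, 1282 and 1458 CPM and at 721, 1110 and 1245 CPM. Slc32a1, the vesicular GABA transporter, which the rule did not use, was detected in 87.0% of the cells. A Pvalb UMI was present in 59 cells (3.55%), an Sst UMI in 47 (2.83%) and an Slc17a7 UMI in 82 (4.93%). No Vip cell had more Lamp5 than Vip UMIs. Of these values, those of Slc32a1 and of Lamp5 lie outside the rule.

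Cells near the limit of 5 Vip UMIs were few. There were 36 cells with 5 or 6 Vip UMIs and 50 just outside with 3 or 4, against 1564 with 10 or more. Adarb2, a caudal-lineage gene, was detected in 77.8% of the cells just inside, in 90.0% of those just outside and in 91.0% of those with 10 or more. Other genes differed: in the same order Prox1 was detected in 47.2%, 42% and 75.6%. Npas1 was detected in 72.2%, 72% and 57.7%, and Lamp5 in 8.33%, 4% and 1.28%. Free Vip RNA can be read from cells that should lack the gene. Vip gave a UMI in 1.59% of 9702 microglia (median 1957 UMIs per cell) and in 3.73% of 12836 glutamatergic neurons (median 9370 UMIs), and none of these cells reached 5.

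Some libraries stood apart. The left library of the first control pool held 7 Vip and 26 GABAergic cells, against 149 and 544 in its right library. That pool therefore rests almost wholly on 1 hemisphere. The other libraries held 119 to 211 Vip cells. No Vip cell of the first control pool had a UMI of Xist, the RNA of the inactive X chromosome in females, although the labels name a male and a female (0 of 156 cells). In the other 5 pools Xist was detected in 41.8% to 59.3% of Vip cells, and at least 1 of 4 Y-linked genes in 28.5% to 40.8%. The Y-linked share in the first control pool was 21.8%. Shared barcodes divided the libraries into those of flow cell HVYK3BBXX, which held the first control and the first late pool, and all others. The second control and the first early pool shared flow cell H2HY7BBXY. The division by shared barcodes was a term in the stage comparison. Markers of microglia, all 8 of which had UMIs in Vip cells, summed to 532 CPM in the first control pool and 362 in the first late pool, and to 54.2 to 102 CPM in the other 4 pools, against 31998 CPM in microglia. Oligodendrocyte markers lay at 16.6 to 71.9 CPM, oligodendrocyte precursor markers at 18.3 to 53.6, vascular markers at 4.98 to 54.8 and glutamatergic markers at 62.4 to 169. A doublet caller (Scrublet) marked 50 Vip cells (3.01%), which were kept here. UMIs of both Xist and a Y-linked gene occurred in 16.0% of the marked and 0.558% of the other Vip cells. No barcode occurred among the Vip cells of 2 libraries, and 23 also occurred among passing cells of another library.

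The number and share of Vip cells were compared between stages first. Control pools had 156 and 292 Vip cells, early pools 275 and 352, and late pools 290 and 298. As shares of GABAergic cells these were 27.4% (Wilson 95% interval 23.9 to 31.2) and 35.0% (31.8 to 38.3) in controls, 34.5% (31.2 to 37.8) and 37.9% (34.8 to 41.1) in early pools, and 36.4% (33.2 to 39.8) and 36.7% (33.4 to 40.0) in late pools. Late and control shares did not overlap with this denominator, and the first control pool was the lowest of the 6. The mean share was 31.2% ± 5.38 (SD, n = 2 pools, here and for the other stages) in controls, 36.2% ± 2.42 in early pools and 36.5% ± 0.157 in late pools. The difference was 5.01 percentage points for early minus control (exact two-sided permutation test over pools, p = 0.667), 5.37 for late minus control (exact p = 0.333) and 0.368 for late minus early (exact p = 1), and 0.333 is the smallest p that 2 pools against 2 can give. Without the first control pool the differences from control were 1.21 points for early and 1.57 for late. Of the cells in the Vip, Pvalb, Sst and Lamp5 classes, a denominator added after seeing the data, Vip cells made up 53.4% and 51.4% in controls, 48.6% and 58% in early and 52.3% and 57.4% in late pools. On that scale the late and control pools overlapped, and late minus control was 2.42 points (exact two-sided permutation p = 0.667) and early minus control 0.872 (exact p = 1). In the first control pool 278 of 570 GABAergic cells were in no class. Among all passing cells, Vip cells made up 3.16% and 3.68% in controls, 3.67% and 4.29% in early and 2.08% and 3.79% in late pools, and the pools of any 2 stages overlapped. Intervals cover counting error only, and shares depend on which cells survive dissociation.

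**Figure D1:**
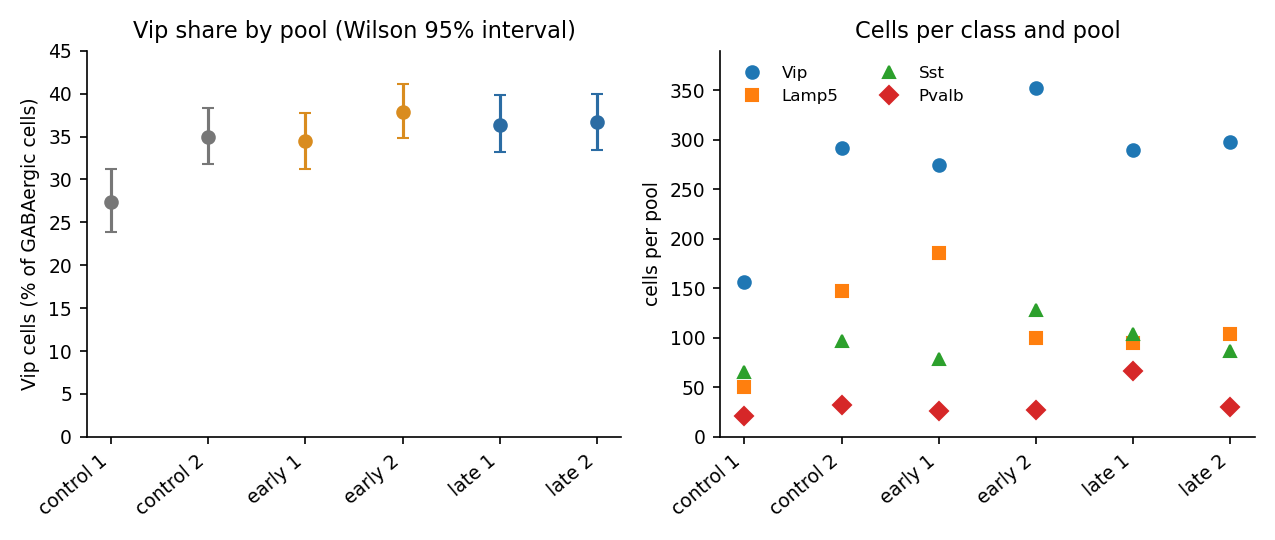
Left, Vip cells as a percentage of GABAergic cells in each of 6 pools, with Wilson 95% intervals. Right, the number of cells of each interneuron class per pool. Control 1 was lowest at 27.4%, the other pools lay between 34.5% and 37.9%, and Vip cells were the most numerous class in every pool.

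Vip cells were next compared with Pvalb, Sst and Lamp5 interneurons taken by mirrored rules from the same libraries (202, 560 and 682 cells). UMIs were summed per pool and class and tested with edgeR's quasi-likelihood test with the pool as a block. Vip cells were set against the mean of the other 3 classes, and the threshold for a call was an adjusted p of 0.05. A gene called against that mean can still go the other way against a single class. Counts over gene lists use that mean unless a class is named. The classes are so different that 4698 of 9947 genes tested (47.2%) were called, 2484 higher (25%) and 2214 lower (22.3%) in Vip cells, so a single call says little; without the pool block 2665 were called. The genes below were not used by the rules, but they were measured in the same cells that the rules chose. Median depth per cell was 5447 UMIs in Vip cells and 9973, 8513 and 9589 in Pvalb, Sst and Lamp5 cells. Detection rates therefore favour the other classes.

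Genes of the caudal lineage, most of them transcription factors, were mostly higher in Vip cells. Of 10 such genes tested, 8 were higher in Vip cells and 2 lower, with a median log2 difference of 2.68, beside 0.013 over all genes. Adarb2, an RNA-editing family member used as a marker of this lineage, lay at 578, 839 and 1066 CPM (lowest, median, highest pool) in Vip cells and at 238, 305 and 373 CPM in Lamp5 cells. In Pvalb and Sst cells it had 5 and 8 UMIs in all, so every Vip pool lay above every pool of the other classes. The log2 difference from Lamp5 cells was 1.46 (SE 0.0737, edgeR adjusted p 4.68e-23). Overlapping transcript models on the same strand carry further UMIs at the Adarb2 locus.

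Prox1, a homeobox factor needed for caudal interneurons to mature, lay at 196, 299 and 326 CPM in Vip cells and at 92.8, 135 and 148 CPM in Lamp5 cells, with 1 UMI in Pvalb and 5 in Sst cells. Its antisense partner Prox1os was also high, at 90.3, 109 and 159 CPM. Nr2f2 (COUP-TFII), a nuclear receptor of caudal progenitors, lay at 246, 345 and 383 CPM in Vip cells, at 176, 199 and 231 in Lamp5 cells and at 25.1, 53.7 and 72.3 in Sst cells. Npas1, a transcriptional repressor, reached 174, 272 and 334 CPM and had no UMI in Pvalb cells. Sp8 did not separate Vip from Lamp5 cells: its median was 51.4 against 46.2 CPM (edgeR adjusted p 0.49 for that contrast). Sp9, a zinc finger factor, was among the members that were lower in Vip cells, at a median of 23.8 CPM.

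Genes listed for the medial lineage were low with exceptions. Of 10 tested, 6 were lower, 3 higher and 1 not called, with a median of -0.98. Lhx6, the factor that directs medial-lineage interneurons, had a single UMI in all 1663 Vip cells, against 232 UMIs in Pvalb, 911 in Sst and 95 in Lamp5 cells. Sox6, which acts below Lhx6, had 10 UMIs in Vip cells, against 214 in Pvalb and 824 in Sst cells. Satb1 lay at 19.2, 30.5 and 36.7 CPM in Vip cells, above Lamp5 cells and far below the medians of 424 in Pvalb and 684 in Sst cells. Nxph1, a secreted ligand of neurexins, was lower by far, at 3.27, 6.22 and 8.29 CPM against medians of 350, 380 and 482. The difference was -6.06 (SE 0.108, edgeR adjusted p 2.07e-42). Maf, Etv1 and Dlx1 of this list were higher in Vip cells, Dlx1 at a median of 324 against 42.5 to 133 CPM. Whether the listed Dlx1, Dlx5 and Dlx6 mark the medial lineage was not tested.

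**Figure D2:**
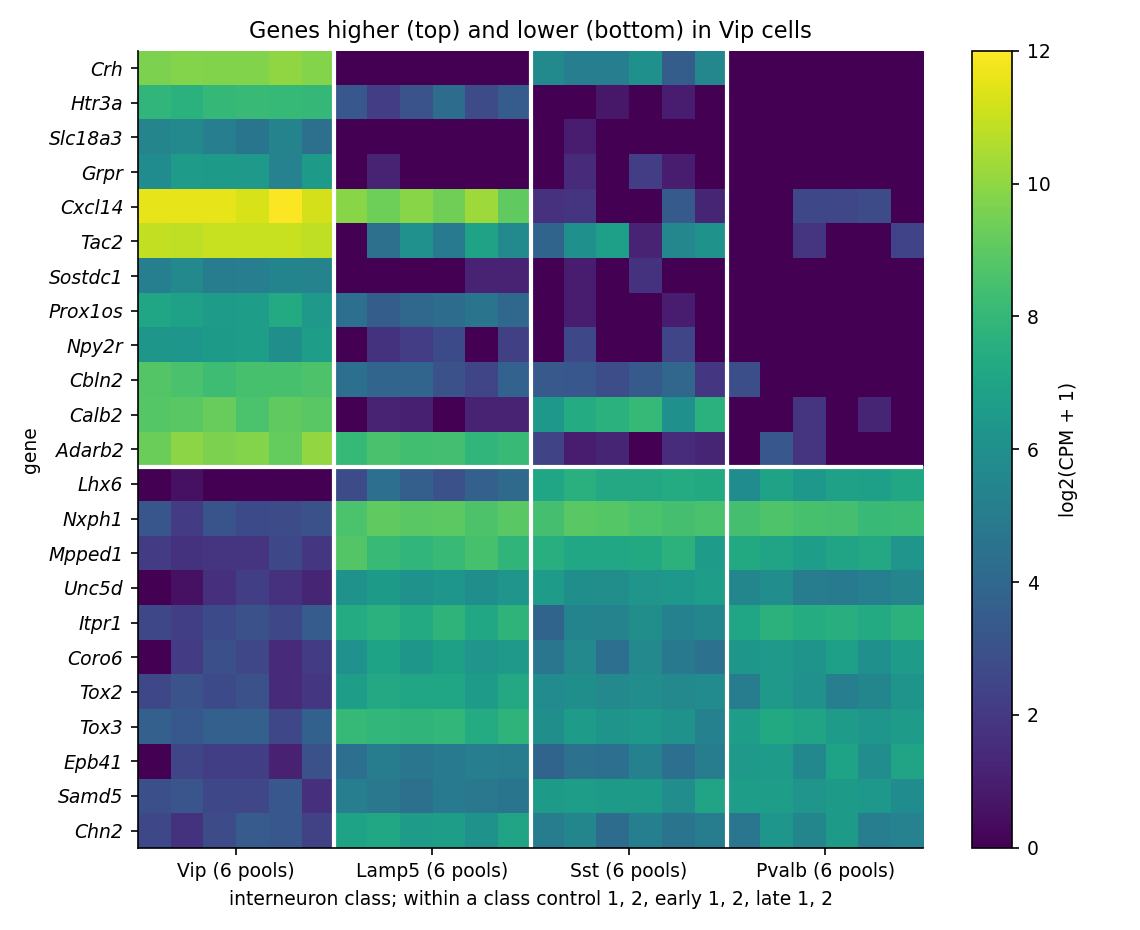
Summed level of named genes, as log2(CPM + 1), in each pool of 4 interneuron classes; the rows above the white line are the genes with the largest excess in Vip cells by a fixed rule and those below it genes with the largest deficit. Crh and Htr3a are high in every Vip pool and absent from the Pvalb pools, and Lhx6 and Nxph1 are low in every Vip pool.

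By the rule for named genes, the 12 genes with the largest excess in Vip cells were Crh, Htr3a, Slc18a3, Grpr, Cxcl14, Tac2, Sostdc1, Prox1os, Npy2r, Cbln2, Calb2 and Adarb2. Each had to average at least 5 log2 CPM in Vip cells, TMM-scaled, and to exceed every other class in every pool, which 425 called genes did. Chat, with a log2 difference of 7.37, lay below that level at a mean of 19.8 CPM. Crh encodes corticotropin-releasing hormone, a stress peptide. It lay at 783, 860 and 1036 CPM and was detected in 69.6% of Vip cells. Pvalb and Lamp5 cells had no Crh UMI, so the level in Vip cells was at least 645-fold higher than in Pvalb and at least 2129-fold higher than in Lamp5 cells (against 3 UMIs over the class). Sst cells were at 10.5, 39.8 and 63.1 CPM.

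Cxcl14, a chemokine, lay at 2363, 2998 and 3886 CPM in Vip cells and 537, 794 and 1217 in Lamp5 cells (7.33 against the mean, SE 0.0969, edgeR adjusted p 2.79e-48). Tac2, the precursor of neurokinin B, lay at 1838, 1955 and 2062 CPM, a narrow range, against medians of 55.4 in Sst and 41.5 in Lamp5 cells. Cbln2, a secreted synapse organiser, lay at 311, 366 and 448 CPM. Calb2 (chromosome 8, 110137502 to 110168210, minus strand) lay at 385, 485 and 597 CPM and was also present in Sst cells at 63.1, 183 and 263 CPM. Sostdc1, a secreted inhibitor of BMP and Wnt signals, lay at 33.0, 37.4 and 48.6 CPM.

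Chat and Slc18a3, genes of acetylcholine handling, had nearly all of their interneuron UMIs in Vip cells. Chat, which makes acetylcholine, had 199 UMIs in Vip cells and none in the other 3 classes, at least 14.0-fold higher than in Pvalb, 36.2-fold than in Sst and 46.0-fold than in Lamp5 cells. Slc18a3, the vesicular acetylcholine transporter, had 365 UMIs, with 1 UMI in Sst cells and none in the others. The Chat and Slc18a3 loci overlap on the same strand, so some of their reads may be shared. At least 2 UMIs of Chat were present in 42 Vip cells (2.53%) and of Slc18a3 in 77 (4.63%). Slc5a7, the choline transporter, was at a like level in Vip and Sst cells (ratio 1.03, exact 95% counting interval 0.872 to 1.22) and at 0 in the other 2 classes. The list of known Vip subgroup markers as a whole had 20 of 22 tested genes higher and 1, Calb1, lower. Its median difference was 5.62, or 4.73 with genes near 0 set at 3 UMIs.

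At the other end were, among others, Lhx6, Nxph1, Mpped1, Unc5d, Itpr1, Coro6, Tox2, Tox3, Epb41, Samd5 and Chn2, taken from 290 called genes that were lower than every class in every pool. Mpped1 lay at 2.34, 2.63 and 5.08 CPM in Vip cells (-5.77). Itpr1, the calcium release channel of the endoplasmic reticulum, had 61 UMIs in Vip cells, against 388 in Pvalb and 1316 in Lamp5 cells (-4.22). Unc5d, a netrin receptor, had 19 UMIs (-4.97). Coro6, Tox2, Tox3, Epb41, Samd5 and Chn2 lay between -3.96 for Coro6 and -3.21 for Chn2.

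Vip cells held RNA of several peptide precursors, and peptides themselves were not measured. Of 20 peptide and processing genes tested besides Vip and Sst, 12 were higher and 6 lower, with a median of 0.26. Cck (chromosome 9, 121489824 to 121495694, minus strand) lay at 1719, 2458 and 3111 CPM in Vip cells, at 366, 453 and 682 in Pvalb, at 535, 657 and 711 in Lamp5 and at 6.26, 21 and 52.6 in Sst cells (3.66, SE 0.083, edgeR adjusted p 5e-38). Penk, the precursor of enkephalins, lay at 345, 580 and 849 CPM, against a median of 117 in Sst cells and under 10 CPM in every Pvalb and Lamp5 pool. Pthlh, a parathyroid hormone-like peptide, lay at 92.3, 126 and 197 CPM against 44.0, 54.9 and 96.5 in Pvalb cells, so these ranges overlap. Npy was present in Vip cells at 1176, 1314 and 1830 CPM, above the Pvalb median of 413 and far below the medians of 9944 in Sst and 14501 in Lamp5 cells. Its difference from the mean was -1.56 (SE 0.124, edgeR adjusted p 1.85e-15). Tac1, the substance P precursor, was nearly absent, with 9 UMIs against 2087 in Pvalb cells. Cort (cortistatin) lay at a median of 27.9 CPM against 223 in Pvalb and 749 in Sst cells.

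Receptors for acetylcholine and serotonin differed gene by gene: 6 of 12 tested were higher, 2 lower and 4 not called, with a median of 0.73. Chrm2, a muscarinic receptor, was among those not called, with a difference that the fit could not fix (-2.75, SE 40.6). It was lower than in Pvalb (-5.26, edgeR adjusted p 1.23e-18) and Sst cells (-6.30, edgeR adjusted p 3.94e-28). Against Lamp5 cells it was higher (3.31, edgeR adjusted p 0.00299). Htr3a, the ion-channel serotonin receptor that marks this class and Lamp5 cells, lay at 201, 252 and 275 CPM and was detected in 38.9% of Vip cells. Lamp5 cells were at 3.56, 8.03 and 17.9 CPM, a difference of 4.97, and Sst and Pvalb cells had 2 UMIs and none. Chrna5 and Chrna4, subunits of nicotinic acetylcholine receptors, had medians of 32.6 and 53.9 CPM. In Lamp5 cells, the next highest class for both, the medians were 4.88 and 37.4 CPM. Htr2c, a G-protein-coupled serotonin receptor, had a median of 73.0 CPM against at most 13.4 in the other classes, whereas Htr2a was lower, at 5.37 CPM against 33.2 in Pvalb and 38.3 in Lamp5 cells (-2.27).

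Other neuromodulator receptors leaned higher. Of 15 tested, 11 were higher and 3 lower, with a median of 2.49, or 2.20 with genes near 0 set at 3 UMIs. Adra1b, an adrenaline receptor, lay at 257, 325 and 369 CPM against medians of 21.9, 43.6 and 103 in Pvalb, Sst and Lamp5 cells (2.89). Cnr1, the cannabinoid receptor of presynaptic terminals, lay at 1164, 1840 and 2429 CPM against 150, 213 and 490 (2.95). Npy1r, a receptor for neuropeptide Y, had a median of 150 CPM against 19.6 in Lamp5 cells, the next class. Grpr, the receptor for gastrin-releasing peptide, had a median of 89.8 CPM and was detected in 35.1% of Vip cells, with 8 UMIs in the other 3 classes together. Tacr1, the substance P receptor, had 1 UMI in Vip cells and 303 in Sst cells. Of the VIP family receptors only Adcyap1r1 passed the filter on low counts, with a median of 116 CPM (0.38).

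Genes for GABA handling and for potassium and sodium channels were mostly lower. Of 6 GABA genes outside the rule, 2 were higher (Slc6a11 and Abat) and 4 lower, Slc32a1, Aldh5a1 and Slc38a1 among them. Slc6a11, a GABA transporter, lay at a median of 23.9 CPM against 2.10 in Pvalb, 5.82 in Sst and 24.7 in Lamp5 cells (1.59, SE 0.198, edgeR adjusted p 1.97e-09). Of 12 GABA-A receptor subunits, 4 were higher and 5 lower, near the even split of all genes. The extrasynaptic subunit Gabrd lay at 3.32, 10.4 and 15.3 CPM against medians of 262 in Pvalb, 27.0 in Sst and 137 in Lamp5 cells (-3.13). Of 20 potassium and sodium channel genes, 13 were lower and 7 higher, with a median of -0.48. Kcnc1 and Kcna1, potassium channels of fast-spiking cells, lay at medians of 422 and 52.5 CPM against 1221 and 296 in Pvalb cells. Kcnc1 was higher in Vip than in Sst cells, whose median was 274. Kcnt2, a sodium-activated potassium channel, lay at a median of 87.1 CPM, against 16.2 in Lamp5 cells and 3 UMIs in Pvalb cells.

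Synaptic genes were mixed for receptors and leaned higher for organisers. Among 17 glutamate receptor genes 7 were higher and 9 lower, with a median of -0.29. Grm8, a presynaptic metabotropic receptor, lay at a median of 34.2 CPM against at most 4.20 elsewhere, and Gria3 at 86.3 against 151 to 168. Among 28 synapse organisers 17 were higher and 4 lower, with a median of 0.58. These calls did not all hold against each class. Cntnap5a (0.51) was lower than in Pvalb (-0.94) and Sst cells (-0.75) and higher than in Lamp5 cells (3.22). Cbln4, Cdh4 and Elfn1 were lower than in Sst cells, Erbb4 than in Pvalb cells and Cntn5 than in Lamp5 cells. Cbln2, Cdh8, Cntn4 and Cntn6 were higher than in each class. Elfn1, a postsynaptic protein that recruits facilitating inputs, lay at 101, 137 and 172 CPM. Its median was 172 in Sst cells, 12.7 in Pvalb and 1.01 in Lamp5 cells. Erbb4, the neuregulin receptor of interneurons, lay at a median of 334 CPM between Pvalb (542) and Sst (102) cells.

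Immediate early genes, which neurons switch on within minutes of activity, were mostly lower in Vip than in Sst and Lamp5 cells, and not against Pvalb cells. Of 19 tested against the mean of the 3 classes, 13 were lower and 1, Fosl2, higher, with a median of -0.48. Against Sst cells 14 were lower and 0 higher (all genes: 22.7% lower, 20.6% higher), and against Lamp5 cells 16 were lower and 1 higher (all genes: 21.1% lower, 22.7% higher). Against Pvalb cells 6 were lower and 7 higher (all genes: 21.9% lower, 24.3% higher), with a median of -0.16. Fos lay at 131, 188 and 261 CPM, against medians of 246 in Pvalb, 326 in Sst and 517 in Lamp5 cells (-0.70, SE 0.0626, edgeR adjusted p 9.17e-14). Fosb (-1.17) and Arc (-2.27) were lower than in each of the 3 classes. The genes higher than in Pvalb cells were Egr1 (0.44), Npas4 (0.76), Egr3 (1.10), Nr4a1 (0.98), Nr4a3 (1.32), Ier2 (0.47) and Fosl2 (0.96). Dissociation also induces such genes. Of 10 heat shock and dissociation genes 3 were lower (Hspa1b, Hsph1 and Dnajb1) and none was higher, and their part in the difference was not tested. Among 16 later activity-regulated genes, 7 were higher and 6 lower. Igf1, a growth factor of Vip cells, lay at 448, 593 and 671 CPM against medians of 11.0, 81.6 and 184 (3.40, SE 0.0702, edgeR adjusted p 7.99e-40). Nptx2, a secreted pentraxin, lay at a median of 24.2 CPM against 11.8 in Sst cells.

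Within the Vip cells, Calb2 and Cck divided the population. With at least 2 UMIs taken as positive, 471 cells (28.3%) had Calb2 alone, 529 (31.8%) Cck alone, 70 (4.21%) both and 593 (35.7%) neither. By the same measure Cck was positive in 1% of microglia (median 1957 UMIs) and 3.04% of Sst cells (median 8513 UMIs), and Calb2 in 0.0412% of microglia. Cck was also positive in 66.3% of Pvalb, 50.3% of Lamp5 and 83.1% of glutamatergic cells. Calb2 was positive in 17.5% of Sst, 0.0623% of glutamatergic and 0% of Pvalb and Lamp5 cells. The Calb2-only share ran from 19.2% to 36.7% over pools and the Cck-only share from 28.2% to 37.5%. Cells with neither were the shallowest, at a median of 4446 UMIs, against 5608, 6394 and 5987 for Calb2-only, Cck-only and both. When each cell was thinned to 1000 UMIs, both genes reached 2 UMIs in 0.541% of cells. Across the 1663 cells, the Spearman correlation of Calb2 with Cck UMIs was -0.388, and -0.285 after thinning. The cells share libraries, so it is a description.

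**Figure D3:**
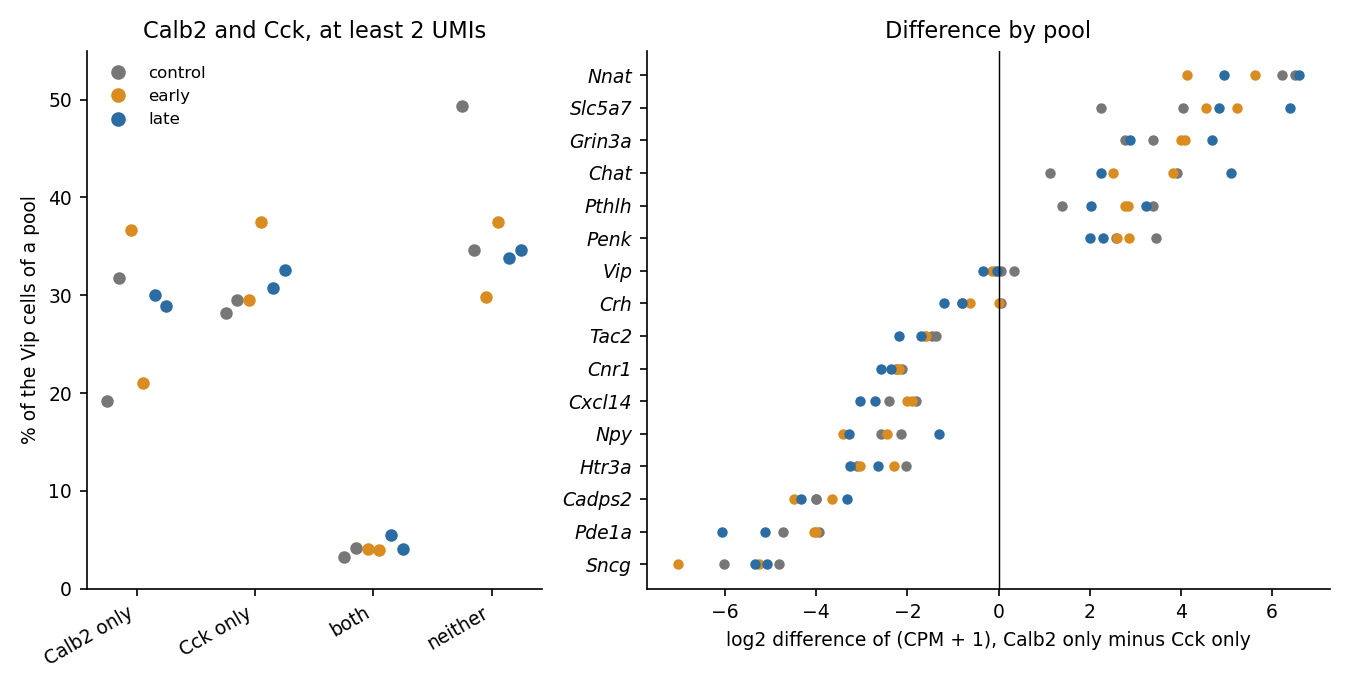
Left, the percentage of Vip cells of each pool with at least 2 UMIs of Calb2 only, Cck only, both or neither. Right, the log2 difference of (CPM + 1) between Calb2-only and Cck-only cells of the same pool for 16 genes, 1 point per pool. Nnat to Penk lie above 0 and Tac2 to Sncg below 0 in all 6 pools, and Vip lies near 0.

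Other genes followed this division. The UMIs of Calb2-only and Cck-only cells were summed per pool and tested with the pool as a block; this test was added after the data had been seen. Apart from Calb2 and Cck, 1256 of 8038 genes tested (15.6%) were called, 554 higher (6.89%) and 702 lower (8.73%) in Calb2-only cells. DESeq2 called 706. Vip, which the rule used, lay at medians of 12622 and 13115 CPM, and the pools overlapped, from 9564 to 16711 CPM in Calb2-only and from 7889 to 17220 CPM in Cck-only cells.

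On the Calb2 side stood Slc5a7, Chat, Penk, Nnat and Grin3a. Slc5a7 lay at 55, 83.7 and 119 CPM in Calb2-only and at 0, 3.65 and 10.8 CPM in Cck-only cells (4.87, SE 0.281, edgeR adjusted p 2.67e-19). Chat lay at 33.4, 39.1 and 55 against 0, 4.08 and 21.6 CPM (3.22). Penk lay at 596, 938 and 1457 against 84.2, 148 and 297 CPM, with no overlap (2.49, SE 0.0923, edgeR adjusted p 1.31e-26). It reached 2 UMIs in 51.2% of Calb2-only and 19.5% of Cck-only cells. Nnat (neuronatin), a small membrane protein of the endoplasmic reticulum, had the largest difference, at 73.3, 92.4 and 233 against 0, 0.517 and 6.52 CPM (5.58); its locus overlaps Blcap on the opposite strand. Grin3a, an NMDA receptor subunit, lay at 124, 142 and 182 against 4.84, 10.6 and 19.1 CPM (3.62, SE 0.187, edgeR adjusted p 4.36e-21). Rspo1 (a Wnt agonist), Thsd7b, Tpbg, Ostf1, Lin7a, Mgat4c, Gpc6, Sema5a and Sostdc1 completed the 12 largest, between 4.27 and 3.37.

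On the Cck side stood Sncg, Htr3a, Npy and Cnr1. Sncg (gamma-synuclein), a marker of Cck basket cells, lay at 27.0, 87.9 and 147 CPM in Cck-only cells and had 3 UMIs in all Calb2-only cells (ratio 94.8, exact 95% counting interval 32.2 to 462). Htr3a lay at 454, 511 and 592 CPM in Cck-only and 53.4, 69.6 and 131 in Calb2-only cells (-2.91, SE 0.108, edgeR adjusted p 1.31e-26). The gene therefore separates these subgroups as well as the classes. Npy lay at 2136, 2807 and 3615 CPM against 309, 496 and 858 (-2.60) and Cnr1 at 2393, 3612 and 4114 against 398, 763 and 908 (-2.34). Cadps2, which primes dense-core vesicles for release, lay at 158, 325 and 609 CPM against 13.8, 20.7 and 30.0 (-4.03). Crabp1, Itih5, Unc5b, Pde1a, Col15a1, Tnfaip8l3, Egln3, Jam2, Col25a1 and Crispld2 completed the 12 largest on this side, Crabp1 with 3 UMIs in Calb2-only cells.

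Some class markers were unequal between the subgroups too. Tac2 reached 2 UMIs in 54.9% of all Vip cells, in 32.9% of Calb2-only and 80.5% of Cck-only cells (-1.70), and Cxcl14 in 44.4% and 93.0% (-2.37). Crh was closer, at 47.6% and 72.0%, and its sum was lower in Calb2-only cells in 4 of 6 pools (-0.67). Of the 18 subgroup markers tested, 8 were higher and 10 lower in Calb2-only cells. Of 10 caudal-lineage genes, 7 were lower and none higher (Adarb2 by -0.90). Of 15 glutamate receptor genes, 9 were higher and 1, Grin2a, lower, with a median of 0.41 beside 0.01 over all genes. Of 24 synapse organisers, 5 were higher and 11 lower, and of 12 immediate early genes, 1 was higher and 2 lower.

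Subgroup shares were compared between stages in the same way, and no exact p could fall below 0.333. Calb2 reached 2 UMIs in 22.4% and 36.0% of control, 40.7% and 25% of early and 35.5% and 32.9% of late Vip cells. Cck did so in 31.4% and 33.6%, 33.5% and 41.5%, and 36.2% and 36.6%. Late and control values of Cck did not overlap (difference 3.91 points, exact two-sided permutation p = 0.333, the smallest possible). In the first control pool 49.4% of cells had neither gene, and that pool was also the shallowest, at a median of 3330 UMIs per Vip cell, against 4068 to 9526 in the others.

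The main question of the design is what training changes, and no gene passed the edgeR test with all pools in Vip cells. UMIs were summed over the Vip cells of each pool, 602887 to 2753565 per pool, and tested with edgeR with stage and flow cell as terms. Of 11543 genes tested, 0 (0%) were called for early against control, 0 (0%) for late against control and 0 (0%) for late against early, with 544, 500 and 298 genes at an unadjusted p under 0.05. DESeq2 also called 0 in each. Without a filter on low counts edgeR called 12, 42 and 24 genes, and limma-voom on single libraries called 10 for early against control, 13 for late against control and 0 for late against early. The standard error of a log2 difference had a median of 0.218, 0.212 and 0.225 over the 5620 genes above 5 log2 CPM. Among those genes, 5, 14 and 8 differed by 1 or more. Counts were simulated for early against control with 1 mean profile for all pools and 200 changed genes, all above 5 log2 CPM on average. The test found 67.5% of these changes, each of 1 on the log2 scale. Genes below that level were not covered. Without the first control or the first late pool, the flow cell term fits the other pool of HVYK3BBXX exactly. Late against control is in that case a comparison of the second late with the second control pool alone. The zero counts did not hold when a pool was left out, which leaves 1 residual degree of freedom and a lone pool in at least 1 stage. Early against control then gave 2 (without the second early pool) to 41 calls (without the second late pool), late against control 23 (without the second control or second late pool) to 120 (without the first control pool), and late against early 8 (without the first early pool) to 50 (without either control pool).

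**Figure D4:**
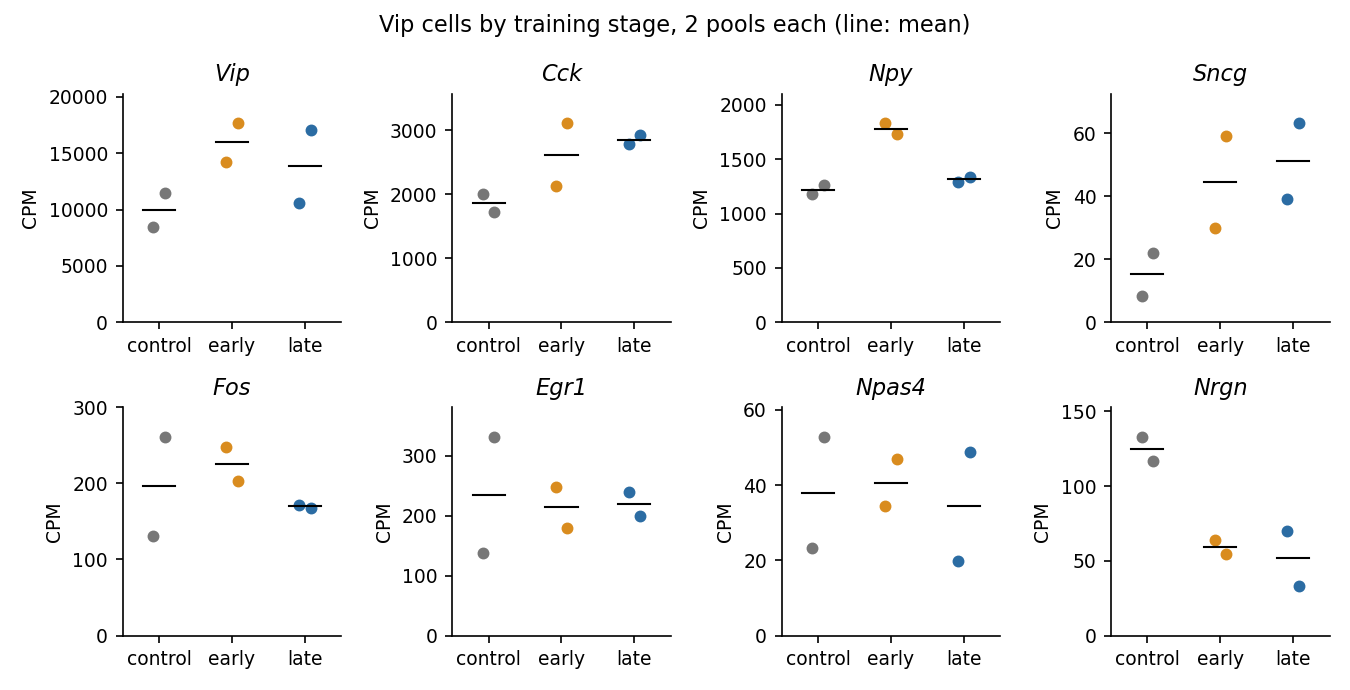
Summed level in Vip cells, in CPM, of 8 genes in the 2 pools of each stage, with the mean as a line. The Fos pools overlap between control and early, Cck is higher in all 4 trained pools than in both control pools, and Nrgn is lower in all 4; none of the 8 passed the test.

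Peptide genes gave the following values without passing the test. Cck lay at 2000 and 1719 CPM in control, 2130 and 3111 in early and 2786 and 2925 in late pools, with differences from control of 0.61 and 0.68. Npy lay at 1176 and 1258, 1830 and 1728, and 1288 and 1340 CPM, highest in both early pools. Crh lay at 783 and 865, 854 and 856, and 1036 and 882 CPM, and Tac2 at 1899 and 1863, 2062 and 2011, and 2019 and 1838. Crh was highest in the first late pool. Vip itself, which the rule used, lay at 8423 and 11501, 14263 and 17656, and 10573 and 17088 CPM. The lower late value and the lower control value came from the pools of flow cell HVYK3BBXX. The list of peptides and their processing, which here includes Vip and Sst although the rule used them, had 20 genes tested. Their median difference was 0.24 for early and 0.18 for late against control, beside 0.01 and 0.00 over all genes.

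No activity gene was called between stages 3 days after labelling. Fos lay at 131 and 261 CPM in control, 248 and 203 in early and 172 and 168 in late pools, so the 2 control pools bracketed every other value. Egr1 lay at 138 and 332, 248 and 180, and 240 and 199 CPM, and Npas4 at 23.2 and 52.8, 34.5 and 46.8, and 19.8 and 48.9. Of the 18 immediate early genes tested none was called, with medians of -0.12, 0.02 and 0.13 in the 3 comparisons. The 11 heat shock genes had medians of 0.26, 0.33 and 0.04. Igf1 lay at 619 and 671 CPM in control, 520 and 567 in early and 448 and 622 in late pools.

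The genes with the smallest p-values between stages were not called. Nrgn (neurogranin), a calmodulin-binding protein abundant in pyramidal cells, lay at 133 and 117 CPM in control, 64.3 and 54.8 in early and 70.0 and 33.3 in late pools (late against control -1.30, SE 0.234, edgeR adjusted p 0.387). The other 7 glutamatergic markers summed to 36.5 and 36.4, 27.2 and 28.9, and 27.1 and 29.2 CPM in the same pools, and their part in the value was not tested. Sncg lay at 8.29 and 22, 29.8 and 59.1, and 39.0 and 63.1 CPM (late against control 1.72, SE 0.358, edgeR adjusted p 0.725). Its trained and control pools did not overlap. Hsd17b4, a peroxisomal enzyme, led early against control (1.35, edgeR adjusted p 0.955), and Rpsa-ps10, a pseudogene near-identical to Rpsa and so uncertain, led both late comparisons (edgeR adjusted p 0.306 against control). Hsd17b4, Rpsa-ps10, Nrgn and Sncg were picked by their p-values.

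The hemispheres of the 4 trained pools were compared within pools. Of 9036 genes, 10 were called (0.111%), 6 higher (0.0664%) and 4 lower (0.0443%) in contralateral libraries, with 448 at an unadjusted p under 0.05. The count ran from 5 (without the first late pool) to 25 (without the second late pool) when 1 pool was left out. Igfbp5 and S100a10 were the called genes whose hemispheres did not overlap. Igfbp5 (chromosome 1, 72857932 to 72874884, minus strand), a secreted binding protein of insulin-like growth factors, lay at 120, 135, 95.8 and 132 CPM in the contralateral libraries of the early 1, early 2, late 1 and late 2 pools. The ipsilateral libraries of these pools lay at 167, 186, 151 and 188 CPM. It was lower on the contralateral side in all 4 pools (-0.51, SE 0.0928, edgeR adjusted p 0.00157). S100a10 (chromosome 3, 93555080 to 93564643, plus strand), a partner of annexin A2, lay at 35.7, 42.6, 45.3 and 41.3 against 21.9, 25.4, 20.6 and 17.1 CPM. It was higher on the contralateral side in all 4 pools (0.92, SE 0.199, edgeR adjusted p 0.0229). Its call was lost without the first late pool (edgeR adjusted p 0.404) and without the second (0.0782). DESeq2 called 0 genes, with an adjusted p of 1 for both Igfbp5 and S100a10. Igfbp5 and S100a10 stayed called under a robust prior (edgeR adjusted p 0.00169 and 0.0314).

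Cck and Npy were called as well and were higher on the contralateral side in 4 of 4 pools. Cck averaged 3274 ± 644 CPM in contralateral and 2308 ± 529 in ipsilateral libraries (SD, n = 4; 0.52, SE 0.0711, edgeR adjusted p 6.02e-06), but the pools differed from 0.02 in late 2 to 1.04 in late 1. Npy averaged 1845 ± 240 and 1296 ± 358 CPM (0.52, SE 0.0683, edgeR adjusted p 2.31e-06). The hemisphere fit had 3 residual degrees of freedom and a prior of 48.1, so these SEs rest mostly on a spread shared over genes. They do not show how far the pools differed for Cck or Npy alone. Both calls were lost under a robust prior (edgeR adjusted p 0.95 for each). Cck reached 2 UMIs in 37.0% and 30.8%, 44.7% and 39.3%, 36.4% and 36.0%, and 33.6% and 38.8% of contralateral and ipsilateral Vip cells in early 1, early 2, late 1 and late 2. Vip itself averaged 15137 and 14707 CPM, a difference of 0.05 (SE 0.0474).

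**Figure D5:**
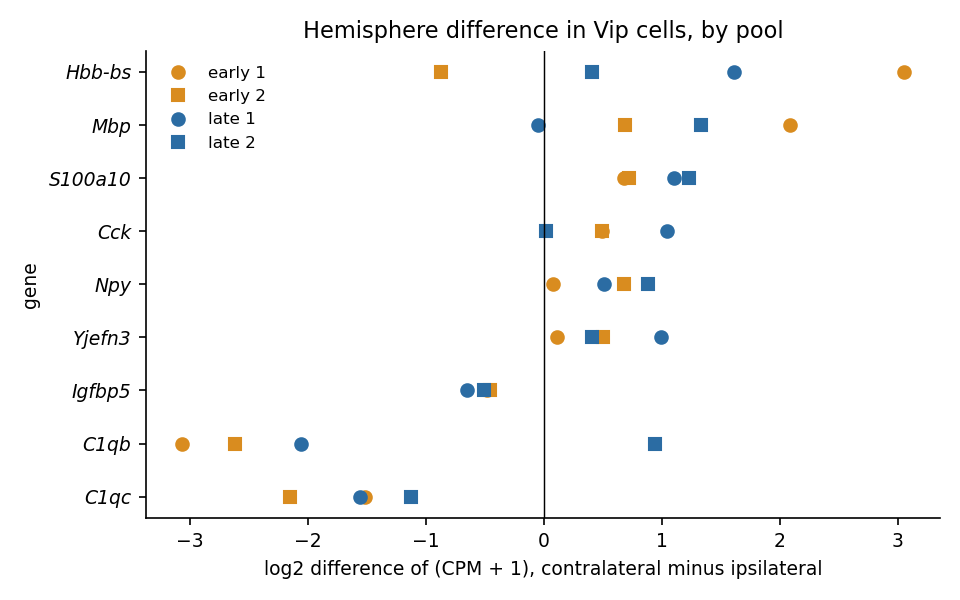
Contralateral minus ipsilateral difference, as log2 of (CPM + 1), for called genes in Vip cells of the 4 trained pools, 1 point per pool. Igfbp5 and C1qc lie below 0 in all 4 pools and S100a10, Cck, Npy and Yjefn3 above 0 in all 4; Hbb-bs runs from -0.87 to 3.05.

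Other called genes belong largely to other cell types. C1qc (-1.64) and C1qb (-1.55), which microglia express, were lower in contralateral libraries, Hbb-bs (1.65), a haemoglobin gene, and Mbp (1.18), a myelin gene, were higher, and so was Yjefn3 (0.47), which overlaps Ndufa13 on the same strand. C1qc, Hbb-bs and Yjefn3 fell outside the rule for named genes and are named because the calls are few. Beside them, the summed microglia markers in Vip cells were 34.1 and 108 CPM (contralateral and ipsilateral) in early 1, 15 and 92 in early 2, 146 and 521 in late 1 and 135 and 76.8 in late 2. Microglia made up 21.1% and 24%, 14.7% and 11.2%, 23.4% and 35.6%, and 13.6% and 15.2% of cells. Their part in these calls was not tested. With doublets removed, C1qb, C1qc and Hbb-bs were no longer called (Hbb-bs turned to -0.93), and Igfbp5, S100a10, Cck, Npy, Mbp and Yjefn3 were. Under a robust prior the calls of C1qb, Hbb-bs, Mbp and Yjefn3 were lost.

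The activity reporter was detected in Vip cells at a share close to that of microglia at equal depth. The reporter transcript is represented by 2 added features, tdtomato with 2 UMIs and wpre with 398 UMIs in all Vip cells. At least 1 of these UMIs occurred in 15.6% of Vip cells, with 13.5% and 16.1% in control, 24% and 9.94% in early and 19.3% and 11.4% in late pools. The share was 7.09% in microglia, which are not neurons and have a median of 1957 UMIs, and 23.1% in glutamatergic neurons. Whether microglia lack the reporter was not tested, and their Fos level was 634 and 575 CPM in contralateral and ipsilateral libraries, against 195 and 199 CPM in Vip cells. After thinning to 1000 UMIs the shares were 3.25% in Vip cells, 3.42% in microglia and 4.40% in glutamatergic neurons. By pool the order varied: the thinned share was higher in Vip cells than in microglia in 4 of 6 pools, with control, early and late means of 3.42%, 3.78% and 3.07% in Vip cells against 2.90%, 3.26% and 2.80% in microglia. Before thinning, the stage means of the Vip share were 14.8% ± 1.86, 17.0% ± 9.94 and 15.4% ± 5.59 (SD, n = 2 pools each), and the 3 differences had an exact two-sided permutation p of 1. The wpre sum was higher in Vip cells than in the mean of the other classes (0.67, edgeR adjusted p 6.26e-05), but not called against Sst cells alone (0.31, edgeR adjusted p 0.112), at a median of 39.5 against 13.6, 25.8 and 28.5 CPM in Pvalb, Sst and Lamp5 cells, and the part of free RNA in it was not tested. The share of cells with a reporter UMI was 14.4% in Pvalb, 21.6% in Sst and 23% in Lamp5 cells, which are deeper, and 2.97%, 2.5% and 2.93% after thinning.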

How the data were processed

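Single-cell 3' libraries of motor cortex (10x Genomics, kit version 2 or 3, not given per library) were deposited as raw counts of UMIs per gene and barcode. They were made by the authors with Cell Ranger 3.1.0 on GRCm38 (mm10), per the submitters' processing notes; per the file headers, the matrices were written by software of version 3.0.2. The matrices hold 54235 features. Positions come from GENCODE M21.

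The members, gene lists and class rules were chosen with earlier results of these data known. Vip cells were chosen by the rule given above, and Pvalb, Sst and Lamp5 cells by its mirrored forms. UMIs were summed per pool (6 pools; a pool of 2 mice is the replicate) or, for hemispheres, per library, and tested with edgeR 4.0.16 in R 4.3.3 (TMM factors, filterByExpr, quasi-likelihood F test) at a Benjamini-Hochberg adjusted p under 0.05 over all genes tested. CPM are UMIs per 1000000 of the sum, without TMM. Designs were stage plus flow cell (2 residual degrees of freedom, prior 12.3), hemisphere plus pool (3, prior 48.1), class plus pool (15, prior 33.5) and Calb2-only against Cck-only cells plus pool (5, prior 40.6). Shares used exact permutation tests over pools. The p-values of the stage and share comparisons measure the spread between pools, which are different mice. Those of the hemisphere, class and subgroup comparisons concern how differences within a pool vary from pool to pool. In each edgeR fit the spread of a gene is drawn toward a value shared over genes, with the weight of the prior given above. Where the prior exceeds the residual degrees of freedom, most of all for hemispheres (48.1 against 3), the p-values rest mainly on that shared value. The 3 stage comparisons share pools.

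Named genes were those of the lists, up to 5 called genes per direction without overlap of the groups for stage and hemisphere, and the 12 largest differences per direction between classes that held in every pool; the same number was taken per direction between subgroups. Doublets were scored with Scrublet (scanpy 1.11.5) and kept in the main results. Alternatives included DESeq2 1.42.0, limma-voom (limma 3.58.1), RLE factors, no filter on low counts, a robust prior (this one, and all for the subgroup test, were chosen after seeing the data), other Vip minimums (3 and 10 UMIs), a stricter cell filter, doublet removal and each pool left out. The tests were checked on simulated counts. Counts over gene lists and calls cover all genes tested, and a few of these genes are not reported here by name.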

Additional observations from a re-analysis of the deposited data

Results flagged for a closer look

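In 59 groups of pools or libraries examined, 3 held 1 value far from the others, where chance gives about 1 in 20. On the TMM-scaled log2 CPM scale, which differs from the unscaled CPM given above, Crh in Vip cells of the first late pool was at 10.15, above a median of 9.71 over the 6 pools; unscaled, it was at 1036 CPM against a median of 860. Lhx6 in the second control pool was at -0.13 on that scale against a median of -1.09, which rests on the single Lhx6 UMI. The difference of Gpc6 between Calb2-only and Cck-only cells was 1.25 in the first control pool, against a median of 3.34. No explanation was tested for these values.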

How the results depend on the processing

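Hemispheres, classes and subgroups were compared within pools. For the stages no replicate block was available, only the flow cell term. HVYK3BBXX held the first control and first late pools, and H2HY7BBXY the second control and first early pools. The second early and second late pools each had a flow cell with no other motor cortex pool. No paired analysis was possible because, between stages, the labels give the pools no replicate numbers (those used here only name them, in accession order), and pools of different stages are different mice. All 360 alternative values of the 24 genes named in the class comparison and all 240 of the 24 named in the subgroup comparison kept direction and call. These genes were picked as called, with the largest differences and on the same side in every pool. Their stability was therefore largely set by the choice and says little about other genes. Of 127 values of the 10 called hemisphere genes 33 lost the call and 1 reversed, and of 204 each for the 12 genes named between stages, 8 gained a call for early and 17 for late against control. Counts of calls moved as follows. Without a filter on low counts early stage gave 12 calls and late stage 42 against control, late gave 24 against early, and the hemispheres 36, and with libraries as units in limma-voom the first pair gave 10 and 13. With 1 pool left out the stage counts ran from 2 to 41, 23 to 120 and 8 to 50. Hemisphere calls fell from 10 to 0 with DESeq2, 1 with stage and flow cell in place of the pool and 4 with a robust prior, and ran from 5 to 25 with 1 pool left out. Hbb-bs turned to -0.93 with doublets removed. Without the pool block the class comparison gave 2665 calls, 2412 against Sst and 2382 against Lamp5. DESeq2 gave 706 calls between subgroups. Some differences in share that missed the test changed sign. With 1 pool left out, the share of GABAergic cells ran from 1.21 to 8.81 points for early and from 1.57 to 9.17 for late minus control. This share, late minus early, was -0.247 points with at least 10 Vip UMIs, and with 1 pool left out ran from -1.35 to 2.08. The share of all cells, late minus control, was 0.251 under the stricter filter and ran from -1.34 to 0.371. The reporter, late minus control, was -0.349 thinned and -1.12 at 2 UMIs; with 1 pool left out it ran from -4.84 to 9.22 for early minus control, -3.37 to 4.53 for late minus control and -8.64 to 5.42 for late minus early. Calb2-positive cells, late minus early, were at -1.25 with 5 UMIs, and with 1 pool left out ran from -4.2 to 11.5 (early minus control), -1.76 to 11.8 (late minus control) and -6.53 to 9.2 (late minus early). Cck-positive cells, late minus early, were at 3.89 with 1 UMI, 0.0384 with 5 and 1.76 thinned, and ran from -5.09 to 2.94 with 1 pool left out. The cause of these changes was not tested. The first control pool, with 156 cells and 602887 UMIs, is the shallowest.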

Other observations

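Of 3 astrocyte-list genes tested in Vip cells, Slc1a2 and Aldoc were called higher than in the mean of the other classes. Slc1a2, a glutamate transporter, lay at 206, 241 and 337 CPM (lowest, median and highest pool), against medians of 16.2 in Pvalb, 24.3 in Sst and 175 in Lamp5 cells. Aldoc, a glycolytic enzyme, lay at 61.4, 138 and 174 CPM against medians of 90.9, 37.0 and 24.6. Slc1a3, another glutamate transporter of astrocytes, was not called against that mean (-0.22, edgeR adjusted p 0.55) and was lower than in Lamp5 cells (-0.96, edgeR adjusted p 0.00816). Aqp4, the water channel that defines astrocytes, averaged 0.756 CPM in Vip cells. The 6 astrocyte markers summed to 295 to 497 CPM over the pools of Vip cells. Whether free RNA contributes was not tested.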
